A study of Mus musculus with 4 samples.

Results

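The Hedgehog receptors, co-receptors and Gli factors were described in the mouse mesenchymal stem cell line C3H10T1/2, with and without bone morphogenetic protein 3 (BMP3), a secreted factor related to TGF-beta. The group holds 10 genes, taken by name for their place in the pathway, with no threshold on values but with earlier results of these data known: the co-receptor genes Cdon, Boc and Gas1, the receptor gene Ptch1, the signal transducer gene Smo, the transcription factor genes Gli1, Gli2 and Gli3, and the inhibitor genes Sufu and Hhip. Every probe set annotated to 1 of these symbols alone was taken, which gave 27 of 45037 probe sets and 10 of 18193 genes. The series has 4 Affymetrix 3' expression arrays of total RNA: 2 of untreated cells and 2 of cells kept for 6 hours with recombinant human BMP3 at 100 ng/ml. All 4 come from this 1 cell line under standard culture, with no other genotype or agent named. The arrays of a group are labelled as biological replicates, without a word on how cultures were separated, so each p-value measures only the spread between these arrays.

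Hedgehog ligands bind the receptor Ptch1 together with the surface proteins Cdon, Boc or Gas1, and this relieves the block that Ptch1 places on the transmembrane protein Smo. Active Smo, at the primary cilium, shifts the balance of Gli2 and Gli3 from repressor to activator forms and frees Gli proteins from Sufu. Gli2 is the main activator, Gli3 acts largely as a repressor when no ligand is present, and Gli1, Ptch1 and Hhip are themselves switched on by the pathway, which makes them its common readouts. In mesenchymal cells the pathway is known for promoting bone and cartilage formation and opposing fat cell formation.

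The labelled cell type was checked against marker genes. Of 12 mesenchymal markers with a probe set of their own, 11 averaged a log2 value of 6 or more, among them Vim, Col1a1, Pdgfra, Prrx1 and Thy1, and Nt5e did not (2.51 to 2.57). Probe sets at or over that level are called brighter here and the others dim. Endothelial, haematopoietic, epithelial, skeletal muscle and neural lists had 1 of 5, 0 of 4, 1 of 5, 0 of 5 and 1 of 5 brighter genes, which were Egfl7, Epcam and Map2. Map2 read 11.01 and 11.12 in control and 10.35 and 10.21 after BMP3. Epcam read 9.37 and 9.56 in control and 9.63 and 9.49 after BMP3. Egfl7 read 7.34 and 7.25 in control and 7.26 and 6.97 after BMP3. Pecam1, Ptprc, Cdh1, Myod1 and Rbfox3, 1 from each list, were dim on every array. Sox10 of the neural list was dim on average but read 6.49 in BMP3 replicate 2. The mean level of each list is the average log2 value over its genes. It ran from 11.78 to 11.96 in control and from 11.83 to 12.10 after BMP3 for mesenchymal markers, and for the other lists from 2.69 to 5.26 in control and from 2.73 to 5.36 after BMP3. Single mesenchymal markers differed in opposite directions behind that mean. Thy1 read 9.08 and 8.85 in control and 9.67 and 9.72 after BMP3, and Cd44 12.91 and 12.52 in control and 13.49 and 13.22 after BMP3, both without overlap. Pdgfra read 13.40 and 13.23 in control and 13.24 and 11.94 after BMP3, with overlap and BMP3 replicate 2 lowest. Control probe sets also differed between the groups. Poly-A spike-ins averaged 8.02 and 7.25 in control and 6.80 and 6.80 after BMP3, and small-subunit ribosomal RNA 11.41 and 10.50 in control and 8.99 and 9.90 after BMP3. Averaged over the 8 of the 10 genes with a brighter probe set, each centred on its own mean, the log2 level was 0.31 and 0.14 in control and -0.09 and -0.36 after BMP3. The 3' minus 5' log2 difference of Gapdh, a sign of RNA quality, was -0.55 and -0.56 in control and -0.09 and -0.44 after BMP3, without overlap. For beta-actin the same measure stood at 0.48 and 0.39 in control and 0.73 and 0.38 after BMP3, with overlap. The part of the spike-in, ribosomal RNA and 3' to 5' differences in the results below was not tested.

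Promoter sequences are shown for a co-receptor, a Gli factor and the receptor whose values were lower in both BMP3 arrays than in both control arrays. They are the 250 bases before the RefSeq start, on the gene's strand, and 8 of the 10 genes had an entry. Capitals mark GGCGCC, a GC-rich element that SMAD proteins bind in the Id1 promoter, which reads the same on both strands.
Cdon (GRCm38.p6 chr9:35451826-35452075, plus strand): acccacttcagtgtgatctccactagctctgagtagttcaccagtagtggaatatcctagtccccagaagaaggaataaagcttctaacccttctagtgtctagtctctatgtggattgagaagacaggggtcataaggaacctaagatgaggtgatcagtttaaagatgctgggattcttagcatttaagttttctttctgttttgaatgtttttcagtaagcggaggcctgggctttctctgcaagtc
Gli3 (GRCm38.p6 chr13:15463473-15463722, plus strand): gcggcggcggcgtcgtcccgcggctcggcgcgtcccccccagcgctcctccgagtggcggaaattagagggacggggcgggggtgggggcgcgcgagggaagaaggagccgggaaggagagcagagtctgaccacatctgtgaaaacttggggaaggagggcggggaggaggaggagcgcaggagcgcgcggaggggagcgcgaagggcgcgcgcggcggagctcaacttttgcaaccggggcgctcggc
Ptch1 (GRCm38.p6 chr13:63565736-63565985, minus strand): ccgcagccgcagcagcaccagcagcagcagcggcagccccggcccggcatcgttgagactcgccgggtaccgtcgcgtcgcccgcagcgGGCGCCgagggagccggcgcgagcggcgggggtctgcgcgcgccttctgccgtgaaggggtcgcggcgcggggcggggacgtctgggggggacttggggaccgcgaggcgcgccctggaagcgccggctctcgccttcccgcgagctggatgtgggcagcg
GGCGCC was present in 3 of the 8 promoters, those of Ptch1 (bases 161 to 156 before the start), Gas1 (26 to 21) and Sufu (197 to 192), and in 9.59% of 32851 promoters of this length. The Gli consensus GACCACCCA, searched on both strands, was in 0 of the 8 and in 0.225% of all. G and C made up 42.8% of the Cdon window, 72.8% of that of Gli3 and 78.4% of that of Ptch1, with a median of 52.4% over all promoters, 19.0% of which were at or below Cdon. The other 5 windows ran from 54.0% (Sufu) and 58.8% (Gas1) to 76.0% (Hhip). These matches describe the letters of the window and no binding was measured. Which start sites these cells use was not measured either.

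Of the 10 genes, 6 had lower and 2 slightly higher mean values after BMP3 at their brightest probe set, and 2, Gli1 and Hhip, were dim throughout. The lower ones were the co-receptors Cdon, Boc and Gas1, the receptor Ptch1 and the factors Gli2 and Gli3. The higher ones were Smo and the inhibitor Sufu. In RNA of whole cultures, fewer cells making a transcript and less of it per cell cannot be told apart. By limma's test 0 of the 10 passed an adjusted p of 0.05 (background 0% of 45037 probe sets, smallest adjusted p = 0.213), and 8.39% of all probe sets had an unadjusted p under 0.05. By a looser rule, an unadjusted p under 0.05 and a fold of at least 1.5, 1 of the 8 brighter genes was lower, Cdon, beside 2.83% of 9185 brighter genes over all, and 0 were higher, beside 2%. At an unadjusted p under 0.05 with no fold required, 2 of the 8 were lower, Cdon and Gli3, beside 8.33%, and 0 higher, beside 9.87%. Of all brighter genes 46.7% were lower on average, against 6 of these 8. The groups did not overlap, with BMP3 below control, at 6 of the 8, beside 21.7% of brighter genes; since earlier results were known when the genes were chosen, this count is a description. They did not overlap with BMP3 above control at 0 of the 8, beside 26.1%. The median log2 difference, BMP3 minus control, was -0.45 over the 8 and -0.23 over all 10, against 0.02 over all brighter genes and -0.01 over all genes. With 2 arrays against 2, an exact two-sided permutation test of a single gene cannot give a p below 0.333, and that was its value for each of the 6 lower genes.

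**Figure D1:**
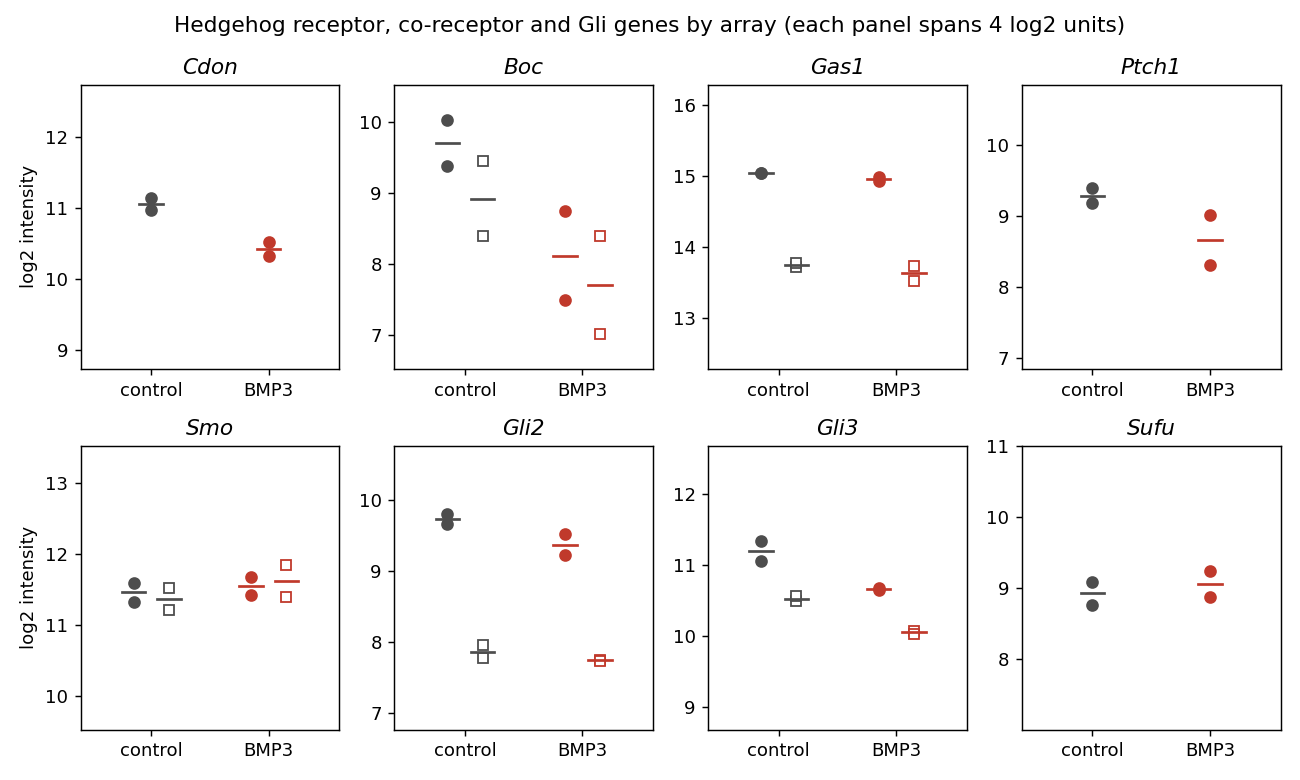
Log2 intensity (vertical axis, 4 log2 units in each panel) of the 8 genes with a brighter probe set, in control arrays (grey) and BMP3 arrays (red). Each point is 1 array, bars are means of 2 arrays, filled circles are the brightest probe set of the gene and open squares its other brighter probe set; Cdon arrays lie at 10.96 and 11.14 in control and at 10.32 and 10.51 after BMP3, with no overlap, while the Smo groups overlap.

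Among the co-receptors, Cdon, an immunoglobulin and fibronectin repeat protein that binds Hedgehog ligand, had the most even difference. Its brighter probe set, 1434957_at, read 10.96 and 11.14 in control and 10.32 and 10.51 after BMP3. Both BMP3 arrays lay below both control arrays, and each group spread over about as much as the other (SD 0.13 and 0.14, n = 2 each). The log2 difference was -0.64 (SE 0.11, 95% confidence interval -0.98 to -0.30), or 64.3% of the control level on the linear scale (limma unadjusted p = 0.00855, adjusted p = 0.355). Without control replicate 2 or BMP3 replicate 1 the difference was -0.55 and -0.54, under the fold of 1.5. The other Cdon probe set was dim, at 1.97 to 2.04.

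Boc, the paralogue of Cdon, had the largest difference of the 8 and the widest spread. Its probe set 1426869_at read 10.03 and 9.37 in control and 8.74 and 7.49 after BMP3. The groups did not overlap, and BMP3 replicate 2 was the lowest by over 1 log2 unit. The difference was -1.59 (SE 0.56, interval -3.31 to 0.14), or 33.3% of control (limma unadjusted p = 0.0614, adjusted p = 0.634). A second brighter probe set, 1427516_a_at, which by its suffix matches several transcripts of the gene, read 9.45 and 8.39 in control and 8.39 and 7.01 after BMP3. Its groups overlapped slightly, since control replicate 2 and BMP3 replicate 1 both stood at 8.39. Its difference was -1.21 (SE 0.69). Without BMP3 replicate 2 the difference at the brightest Boc probe set was -0.96, and without BMP3 replicate 1 it was -2.21.

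Gas1, a membrane-anchored co-receptor first known as a growth arrest gene, was close to level. Its probe set 1416855_at read 15.04 and 15.04 in control and 14.98 and 14.93 after BMP3, a difference of -0.08 (SE 0.04, interval -0.21 to 0.04). The limma unadjusted p was 0.116, and 0.512 when only brighter probe sets entered the fit. The width of this interval thus depends on the probe sets fitted. The second brighter probe set had -0.12 (SE 0.09) with overlapping groups. The interval at the brightest probe set lies above the Cdon estimate. Whether the Gas1 and Cdon differences differ was not tested.

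Ptch1, the ligand receptor and a target gene of the pathway, was lower in both BMP3 arrays, mostly in 1 of them. Its probe set 1428853_at read 9.39 and 9.19 in control and 9.01 and 8.30 after BMP3. The highest BMP3 array lay only slightly under the lowest control array, and BMP3 replicate 2 stood well below the other 3. The difference was -0.63 (SE 0.29, interval -1.54 to 0.27), or 64.5% of control (limma unadjusted p = 0.115, adjusted p = 0.777). Without BMP3 replicate 2 it was -0.28, and without BMP3 replicate 1 it was -0.99. The other 2 Ptch1 probe sets were dim, at 1.84 to 2.22.

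The other common readouts of the pathway gave no usable level. Gli1, the factor that is itself induced by Hedgehog signalling, has 1 probe set, 1449058_at, which read 2.07 and 2.05 in control and 2.08 and 2.06 after BMP3. Hhip, a membrane protein that captures the ligand, has 4 probe sets, all between 1.87 and 3.28. These values lie below the median of each array, which ran from 3.31 to 3.40, so no difference is read for either gene. A dim probe set is not evidence that a transcript is absent. Of the 27 probe sets 14 were dim, at 1.84 to 3.28, and 9 of these belonged to 7 genes that also had a brighter probe set.

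Smo, the transmembrane protein that carries the signal inward, did not differ beyond the spread between arrays. Its probe set 1427049_s_at, whose suffix marks probes that can match more than 1 transcript or gene, read 11.60 and 11.33 in control and 11.68 and 11.43 after BMP3. The groups overlapped, and the difference was 0.09 (SE 0.15, interval -0.37 to 0.55). The second brighter probe set, 1427048_at, gave 0.25 (SE 0.22) with overlapping groups. The interval at the first holds changes of up to 0.37 downward, so these arrays do not show that Smo stayed level.

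Sufu, which holds Gli proteins in the cytoplasm, likewise overlapped between groups. Its probe set 1450024_at read 9.09 and 8.76 in control and 9.25 and 8.87 after BMP3, a difference of 0.13 (SE 0.20, interval -0.48 to 0.75). For Smo and Sufu the sign turned when control replicate 2 or BMP3 replicate 1 was left out. Between same-numbered arrays, BMP3 minus control was 0.08 and 0.10 for Smo and 0.16 and 0.11 for Sufu. Replicate 2 lay below replicate 1 in both groups for each of these genes. A fit without 1 array weighs the replicate numbers unequally between the groups. The labels do not say whether equal numbers mark paired cultures.

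Of the Gli factors, Gli3 was lower at both of its brighter probe sets. At 1455154_at it read 11.34 and 11.05 in control and 10.69 and 10.65 after BMP3, and at 1456067_at 10.49 and 10.57 in control and 10.08 and 10.03 after BMP3. Neither probe set overlapped between groups. The differences were similar in size, at -0.53 (SE 0.12, interval -0.90 to -0.16, limma unadjusted p = 0.0193, adjusted p = 0.442) and -0.48 (SE 0.05, interval -0.63 to -0.32, limma unadjusted p = 0.00193, adjusted p = 0.260). On the linear scale they were 69.2% and 71.9% of control, so neither reached the fold of 1.5. At the first, leaving out BMP3 replicate 1 or replicate 2 gave a limma unadjusted p of 0.0728 or 0.0836.

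Gli2, the main activator, had a smaller difference. At 1459211_at it read 9.67 and 9.81 in control and 9.24 and 9.52 after BMP3, a difference of -0.36 (SE 0.13, interval -0.76 to 0.04, limma unadjusted p = 0.0638, adjusted p = 0.641). The groups did not overlap there or at 1446086_s_at, which read 7.96 and 7.78 in control and 7.76 and 7.73 after BMP3 (difference -0.12, SE 0.08). The size differed between the 2 probe sets, and the second one can match more than 1 transcript or gene.

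**Figure D2:**
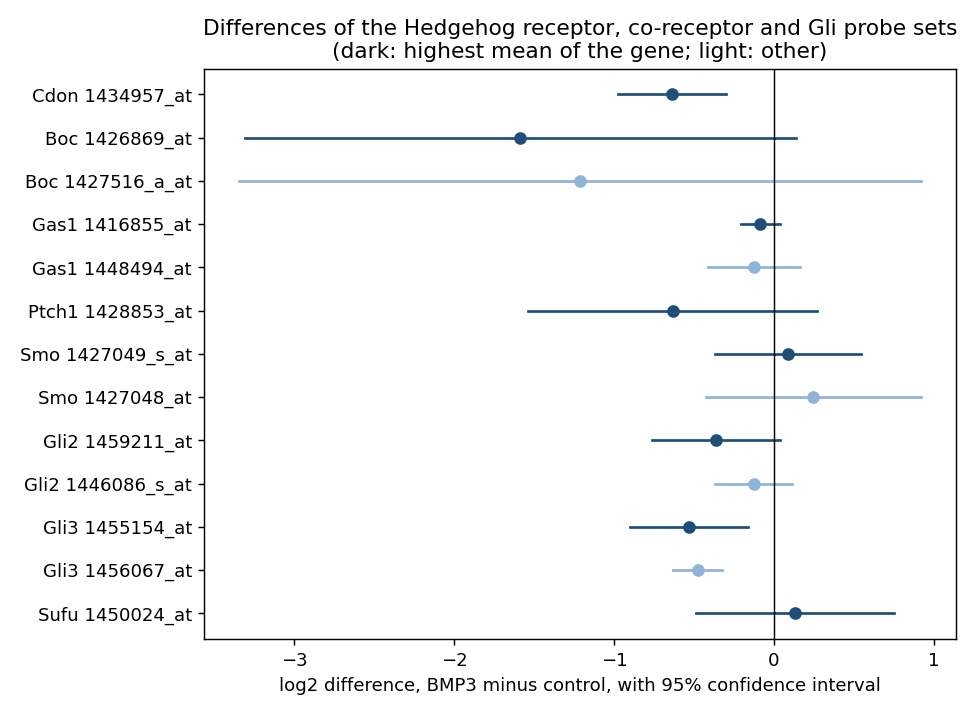
Log2 difference, BMP3 minus control (horizontal axis), of the 13 brighter probe sets with limma's 95% confidence interval; dark marks are the brightest probe set of each gene and light marks its other brighter one. The intervals of Cdon and of both Gli3 probe sets lie below 0, while those of Boc are the widest and reach 0.14 and 0.92.

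**Figure D3:**
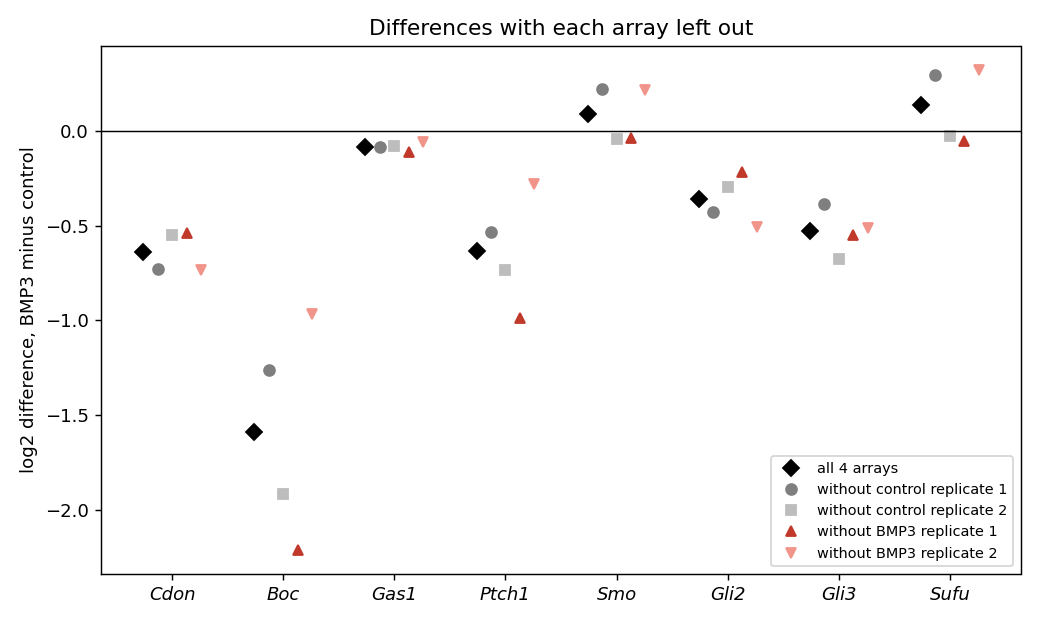
Log2 difference, BMP3 minus control (vertical axis), for 8 genes with all 4 arrays (diamonds) and with each array left out (other marks). Cdon stays between -0.73 and -0.54 and Gli3 between -0.67 and -0.39, Boc runs from -2.21 to -0.96 and Ptch1 from -0.99 to -0.28, and Smo and Sufu lie on both sides of 0.

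The profiles of the 8 genes over the 4 arrays were set side by side as a description, by the root mean square distance between log2 values centred on each gene's mean. Smo and Sufu were the closest pair (distance 0.05), followed by Cdon and Gli2 (0.14). Boc and Ptch1, which varied most over the 4 arrays, were matched against 9184 other brighter genes. Boc lay nearest to Casp12 (0.03), Akr1c14 (0.08) and Abca9 (0.10), whose differences were -1.52, -1.63 and -1.50. Ptch1 lay nearest to Ddb2 (0.006), Ttc30b (0.02) and Taf4 (0.04), with -0.63, -0.64 and -0.61. With 4 arrays and this many genes, near matches of this kind are easily found.

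Other genes of the pathway were read from a list of 97 symbols, of which 89 had a probe set of their own and 64 were brighter. By limma 0 of the 89 passed an adjusted p of 0.05. By the looser rule 2 of the 64 were lower and 0 higher, beside 2.83% and 2% of all brighter genes. Their median difference was 0.00, with 32 above and 32 below 0, against -0.45 for the 8 genes described above. The difference between these medians was not tested.

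The list by role gave the following. Among other receptors and co-receptors the 3 brighter genes had a median of -0.44, beside -0.45 for the 8 genes described above. By the looser rule 1 of the 3 was lower. This was Gpc6, a glypican, a cell surface heparan sulphate proteoglycan, which read 10.92 and 10.59 in control and 9.89 and 9.43 after BMP3 (difference -1.10, SE 0.22, limma adjusted p = 0.404). Gpr161, a ciliary receptor that keeps the pathway off, had -0.44 (SE 0.14) and Gpc4 0.02 (SE 0.06). The ligand genes Shh, Ihh and Dhh were dim on all arrays, at 1.80 to 2.36. Of the genes for ligand processing and release, the acyltransferase Hhat had 0.46 (SE 0.53) and the transporter-like Disp1 -0.02 (SE 0.22).

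Among kinases, ubiquitin ligases and adaptors that act on Smo or Gli, 0 of 23 brighter genes passed the looser rule, and the median was 0.03. The casein kinase gene Csnk1g2 had the smallest p of that role, at 10.80 and 10.88 in control and 11.40 and 11.39 after BMP3 (difference 0.56, SE 0.04, limma adjusted p = 0.224). The ubiquitin ligase Mgrn1 had 0.41 (SE 0.05) and the kinase Dyrk2 -0.27 (SE 0.03). Of 20 brighter genes of the primary cilium, 0 passed the looser rule and the median was -0.13. Below 0 were 13, beside 46.7% of all brighter genes, and 7 were above. Among those below 0, Ift88, Ift172, Ift52, Ift80, Kif7, Inpp5e, Evc and Dync2h1 were lowest in BMP3 replicate 2, with overlapping groups. Kif3a was also lowest on that array, without overlap. Ofd1, a centriole and cilium protein, read 9.67 and 9.69 in control and 9.08 and 9.14 after BMP3 (difference -0.57, SE 0.04, limma adjusted p = 0.221). The subunits of the ciliary motor kinesin went opposite ways, with Kif3a at -0.33 (SE 0.09) and Kif3b at 0.32 (SE 0.09).

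Genes known to be induced through Gli in mesenchyme or other tissues were split, with 8 of 16 brighter genes above and 8 below 0 and a median of -0.02. By the looser rule 1 was lower, the forkhead factor Foxd1, which read 11.07 and 11.76 in control and 10.43 and 10.60 after BMP3 (difference -0.90, SE 0.28, limma adjusted p = 0.576). The cell cycle genes Cdk6 and Ccnd1 had 0.52 (SE 0.07) and 0.53 (SE 0.11). These 2 genes answer to many signals besides Hedgehog. What lay behind their differences, or behind that of Foxd1, was not tested. Foxf1, Foxl1 and Nkx3-2, among the targets best known in mesenchyme, were dim on average, so their differences are not read.

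**Figure D4:**
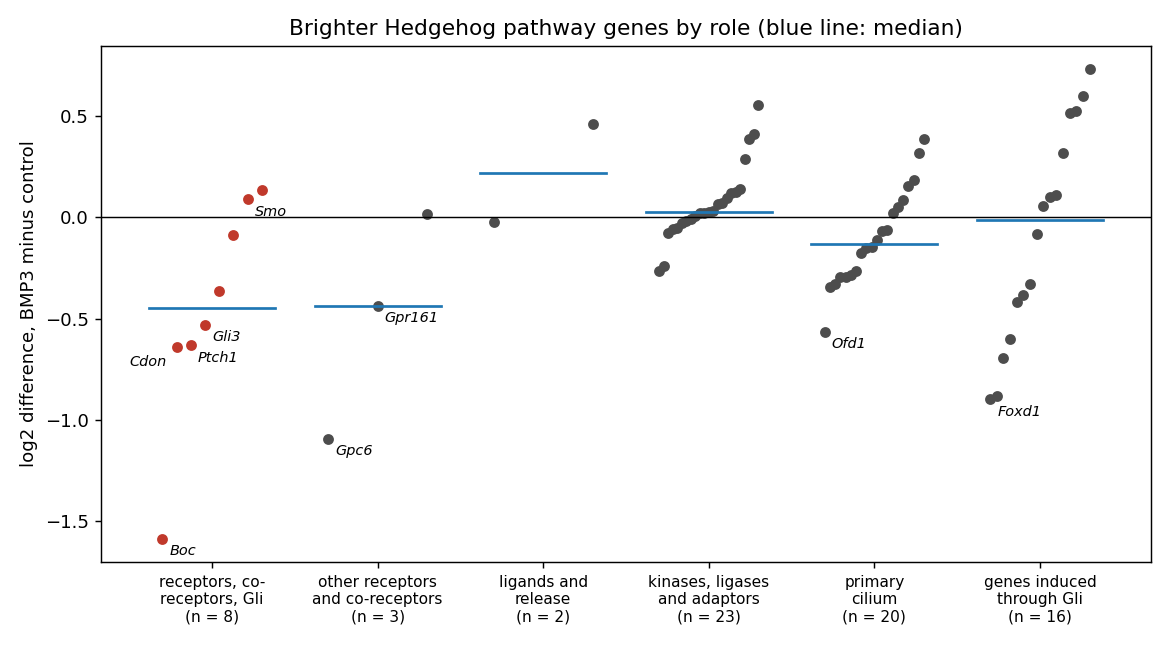
Log2 difference, BMP3 minus control (vertical axis), of the brightest probe set of each brighter gene, in the receptors, co-receptors and Gli factors (red) and in other pathway genes by role (grey); blue lines are medians. The median is -0.45 for the red points and -0.44 for the 3 other receptors and co-receptors. It is 0.22 for the 2 ligand and release genes and 0.03 for kinases, ligases and adaptors. Cilium genes have -0.13 and genes induced through Gli -0.02.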

How the data were processed

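Total RNA was labelled with biotin and hybridised to 3' expression arrays, per the labels' protocols. For every probe set and array the authors deposited 1 value, read here as log2 from the range of the values. The submitters' processing notes name Partek. How background, normalization and probe summary were handled is not given in the sources used here, and another log base would change every fold.

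Values were used as deposited, without 64 control probe sets. Of the remaining 45037, 34945 carried 1 symbol in the platform annotation, 932 several and 9160 none listed. Of the symbols, 34741 were checked through Entrez identifiers and 0 changed. A gene was represented by its brightest probe set, averaged over all 4 arrays. BMP3 and control were compared with limma 3.58.1 in R 4.3.3 (lmFit, eBayes, default prior), two-sided, with p-values adjusted by Benjamini-Hochberg across the whole table and no replicate term. The fit was tested on simulated data with known changes and independent noise for each array. Noise shared by same-numbered arrays was not simulated, so p-values under such sharing were not tested. The number of arrays limits the precision.

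The genes and lists were chosen with earlier results of these data known. All 10 genes are named, and from each role of the pathway list the genes past an adjusted p of 0.05 or else up to 3 brighter genes of smallest p. Boc and Ptch1, the brighter genes with the largest SD over the arrays, were each given their 3 nearest profiles. Alternatives were a replicate block, leaving out each array, 3 other normalizations, 2 filters on dim probe sets, an offset of 16, other variance priors, other ways to combine probe sets and other thresholds. Promoters are from RefSeq (GRCm38.p6); Boc and Gli1 had no entry.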

Additional observations from a re-analysis of the deposited data

How the results depend on the processing

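The cause was not tested for any change below. Over 15 alternatives, the direction held in each for Cdon, Boc, Gas1, Ptch1, Gli2 and Gli3, but most could not have changed it. The replicate block, both filters on dim probe sets, the trend prior and the ordinary linear model leave each log2 difference as it was. Since the groups of these genes did not overlap, leaving out 1 array or adding the offset could not reverse it. Under the other normalizations, where it could change, it held. With every array kept, 0 of the 8 genes passed an adjusted p of 0.05 in any alternative. With 1 array left out, Smo ran from -0.043 to 0.22 and Sufu from -0.055 to 0.32, both below 0 without control replicate 2 (-0.043 and -0.030) and without BMP3 replicate 1 (-0.036 and -0.055). Between same-numbered arrays, the differences of Smo and Sufu were all above 0. The labels do not say whether a replicate number marks a shared culture day. Replicate 2 minus replicate 1 correlated at 0.60 between the groups over 17152 brighter probe sets, with 2 pairs. With the replicate block, 3 of the genes were lower by the looser rule (Cdon, Boc and Ptch1). Of 45037 probe sets 1481 were then lower and 683 higher, against 901 and 364 without the block. Of other pathway genes 5 were then lower and 1 higher. Counts over all probe sets, here and in the next paragraph, include dim ones. They are not shares of brighter genes, which were not computed for these settings.

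Leaving out 1 array gave 1 to 2 lower by the looser rule: Cdon without control replicate 1 or BMP3 replicate 2, Gli3 without control replicate 2, and Boc and Ptch1 without BMP3 replicate 1. The median of the 8 was then -0.42 to -0.38. Over all probe sets 742 to 1407 were then lower and 329 to 870 higher, and of other pathway genes 1 to 4 lower and 1 to 2 higher, with a median of -0.07 to 0.07.

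Cdon and Boc were both lower with only brighter probe sets, with the upper-ranked probe sets by mean and with the trend prior (2 each). Among all probe sets fitted, 847, 1014 and 1174 were lower in that order, and 367, 410 and 466 higher. The 2 filters fit fewer probe sets than the trend prior. With the mean of all probe sets 0 genes were lower. There dim probe sets enter the mean, and the median of the 8 was -0.23. With the mean of brighter probe sets, an alternative added after seeing the data, the median was -0.37. With an unadjusted p under 0.05 alone, 2 of the genes (Cdon and Gli3) were lower, with 2112 probe sets lower and 1667 higher, and 5 other pathway genes lower and 7 higher. At an unadjusted p under 0.01 with the fold, 398 probe sets were lower and 161 higher, and 0 other pathway genes lower. The ordinary linear model gave 418 and 171, and 0 other pathway genes lower. Other pathway genes lower numbered 1 under quantile normalization, median centring, cyclic loess, the offset and the mean of all probe sets, and higher 1 under median centring and both means of probe sets. Dim probe sets limit what can be said of Gli1 and Hhip.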
